A study of Homo sapiens with 8 samples.

Results

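TEAD1 and TEAD4 occupancy was compared by position, centre, neighbouring peaks and rank in HuCCT1 cells, an established human line from a cholangiocarcinoma, a cancer of the bile duct. The compared sites were every peak of the deposited TEAD1 list (38186 peaks) and of the deposited TEAD4 list (12188 peaks), together 50374 of the 51828 peaks in the 5 lists of the series. The series held 8 chromatin immunoprecipitation sequencing (ChIP-seq) libraries of this line, 1 for each antibody or control. Chromatin was cross-linked with 1% formaldehyde for 10 min and sheared to fragments of 200 to 500 bp, and TEAD1 and TEAD4 were each precipitated with an antibody labelled with the name of that protein. The labels name no treatment and do not say whether the cells used for the TEAD libraries carried a transgene. The lists for YAP and for HA-YAP5SA (HA-tagged YAP with its LATS-targeted serines replaced by alanine) are used below only as further readouts at TEAD sites.

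TEAD1 and TEAD4 belong to a family of transcription factors that share the TEA DNA-binding domain and recognise the same short element, known as MCAT. They have little activity of their own and act mainly by recruiting coactivators, above all YAP and TAZ, the effectors of the Hippo growth-control pathway. In epithelial cancer cells most TEAD binding is known to lie at enhancers far from gene starts. Which family members occupy the same elements is a question that a pair of peak lists from 1 line can address by position alone.

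There was 1 library per antibody and the depth behind each list is unknown, so no difference below has a replicate check and none was tested. The precipitated protein, its antibody and the library differ together between the lists and cannot be told apart, and whether depth or peak-calling control also differed is not known here. The intervals given are exact binomial ones at 95%; peaks are not replicates, and only the error of counting them is covered. Peak scores, whose scale is not stated, were used only as ranks within a list: rank 1 is the highest score, and a percentile places a peak in its list from the lowest score up to 100 at the highest, with ties averaged. Coordinates are hg19. Genes and sequences at these positions were not assigned here.

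Almost all peaks of the TEAD4 list lay on peaks of the longer TEAD1 list, while most peaks of the full TEAD1 list had no TEAD4 peak. Of all TEAD4 peaks, 97.1% shared at least 1 bp with a TEAD1 peak, and of all TEAD1 peaks 30.6% shared at least 1 bp with a TEAD4 peak. These shares are those of 11835 TEAD4 peaks and 11668 TEAD1 peaks. They rest on the unequal lengths of the lists: when only the 12188 top TEAD1 peaks by score were kept, 74.7% of TEAD4 peaks lay on TEAD1 and 73.4% of TEAD1 peaks had TEAD4. The overlaps were nested rather than partial. Of the 11835 overlapping TEAD4 peaks, 11013 (93.1%, interval 92.6 to 93.5%) lay wholly inside 1 TEAD1 peak, and 11826 (99.9%) had their centre inside one. The reverse nesting, a TEAD1 peak wholly inside a TEAD4 peak, occurred at 25 of 11668 TEAD1 peaks (0.214%, 0.139 to 0.316%). A TEAD4 peak covered a median of 53.5% of the TEAD1 peak it met (interquartile range 43.4 to 64.1%). The called widths differed, however: 353 bp was the median width of TEAD4 peaks on TEAD1, and 672 bp that of TEAD1 peaks with TEAD4. A narrower peak with a nearby centre falls inside a wider one by width alone. The nesting and the covered share therefore describe the called intervals and show nothing further about occupancy.

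Few peaks lay near the limit of the 1 bp rule. The smallest shared lengths were 17, 49 and 60 bp, and 2 of the 11835 overlapping TEAD4 peaks shared under 50 bp. Just outside the rule, the nearest edges of a TEAD4 peak and a TEAD1 peak were 49, 66 and 70 bp apart. Of the 353 TEAD4 peaks without TEAD1, 32 (9.07%, interval 6.28 to 12.6%) had a TEAD1 edge within 500 bp.

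The share of TEAD1 peaks with TEAD4 followed the TEAD1 rank closely. It was 2.20% in the lowest decile of the TEAD1 score, 12.0% in the fifth, 18.6% in the sixth, 30.6% in the seventh, 51.9% in the eighth, 77.6% in the ninth and 97.0% in the highest. The share was higher in each decile than in the one below it, with the largest steps in the upper deciles. In the TEAD4 list the share was high throughout but also rose with rank. Of the lowest decile 90.0% (1096 of 1218, interval 88.2 to 91.6%) overlapped TEAD1, and of the third 94.0%. The share was 98.8% in the fifth (1204 of 1219) and 99.8% in the highest (1217 of 1219). TEAD4 peaks without TEAD1 were thus most frequent in the lowest decile. In the lists as deposited, even the weakest TEAD4 peaks were mostly TEAD1 sites, whereas the weakest TEAD1 peaks were rarely TEAD4 sites. List length bears on this contrast: with 12188 TEAD4 peaks, most of the 38186 TEAD1 peaks could not meet one of their own. With only the 12188 top TEAD1 peaks kept, the overall shares were 74.7% of TEAD4 peaks and 73.4% of TEAD1 peaks.

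**Figure D1:**
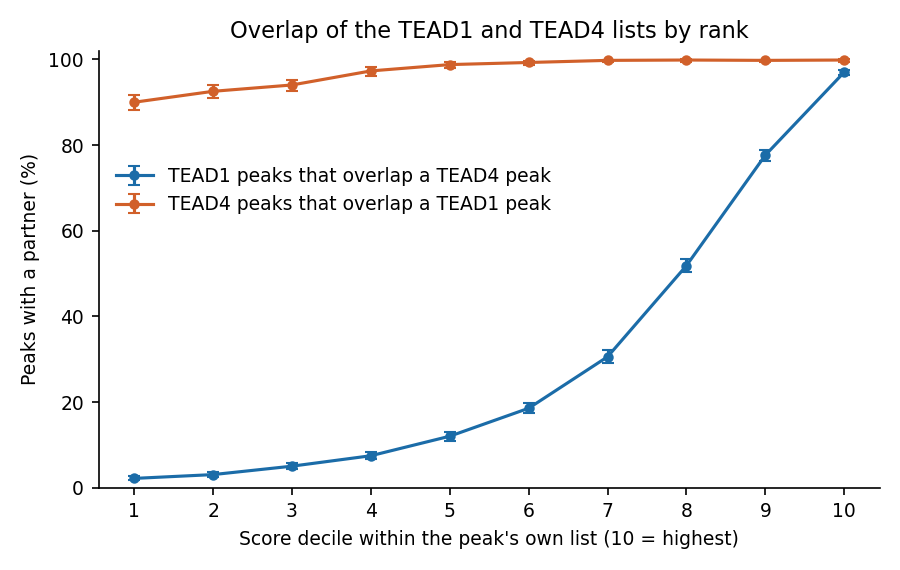
Share of TEAD1 peaks that overlap a TEAD4 peak (blue) and of TEAD4 peaks that overlap a TEAD1 peak (orange), in percent, against the score decile within the peak's own list, with 10 as the highest. Points are shares over all peaks of a decile and bars are exact 95% binomial intervals; the blue curve runs from 2.20 to 97.0%, the orange one from 90.0 to 99.8%.

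Peak width moved with this pattern only in part. The median TEAD1 width was 672 bp where TEAD4 was present (579 to 790 bp between quartiles), against 508 bp (424 to 594 bp) for those without. Among peaks of like TEAD1 rank the widths were closer: 637 bp with and 621 bp without TEAD4 in the eighth decile, and 682 bp with and 684.5 bp without in the ninth. In the lowest decile they were 508.5 and 421 bp. The part of width in the overlap was not tested.

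The share of TEAD1 peaks with TEAD4 also varied between chromosomes. Over chromosomes 1 to 22 and X its median was 29.5%. It was highest on chromosome 17, with 602 of 1467 peaks (41%, interval 38.5 to 43.6%), followed by chromosome 20 with 38.8% (35.6 to 42.0%) and chromosome 14 with 37.1% (34.5 to 39.8%). The lowest shares among these were on chromosome 18, with 150 of 661 peaks (22.7%, 19.6 to 26.1%), chromosome X with 23.2% (20.6 to 25.9%) and chromosome 13 with 24.1% (21.1 to 27.2%). TEAD1 peaks of chromosome 17 also ranked higher, with a median percentile of 55.3, against 46.4 on chromosome 18. Among TEAD1 peaks of the sixth to eighth score deciles, chromosome 17 still had 46.0% with TEAD4 (41.2 to 50.8%) and chromosome 18 had 26.0% (upper bound 32.8%). These intervals did not overlap at broadly like rank, but both chromosomes were picked as extremes of the overall share. In these deciles the highest share was on chromosome 19 (46.8%, 40.1 to 53.6%) and the lowest on chromosome X (22.8%, 18.4 to 27.6%). The copy number of these chromosomes in the line was not measured here.

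Centres were compared next, to ask how closely the peaks of a pair coincide. Over the 11835 overlapping TEAD4 peaks, the median distance to the nearest overlapping TEAD1 centre was 44 bp (interquartile range 20.5 to 80 bp). The 11489 pairs in which 1 TEAD1 peak met 1 TEAD4 peak and no other had a median of 42.5 bp (20 to 76 bp), or 13.0% of the distance from the TEAD1 centre to its edge. Of these pairs, 31.4% were centred within 25 bp of each other, 56.8% within 50 bp, 84.6% within 100 bp and 96.2% within 200 bp. The offsets are small against the sheared fragments of 200 to 500 bp.

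The offset was nearly the same on both sides, with a slight lean toward lower coordinates. The signed offset, TEAD4 centre minus TEAD1 centre along the chromosome, had a median of -2 bp (quartiles -44.5 and 40.5 bp), and the TEAD4 centre had the higher coordinate in 5565 of the 11449 pairs with unequal centres (48.6%, interval 47.7 to 49.5%).

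The offset varied with the width of the TEAD1 peak more than with the rank of either peak. In the 4 narrower quintiles of TEAD1 width (205 to 822 bp) the median offset was 40, 38, 38.5 and 37 bp. In the widest quintile (822 to 9080 bp) it was 84 bp (interquartile range 34 to 170 bp). That quintile held 397 of the 431 pairs centred more than 200 bp apart (92.1%, interval 89.2 to 94.5%). Peaks were paired by overlap, and a wide TEAD1 peak leaves room for larger offsets than a narrow one. The pairing rule itself can therefore give a larger offset in the widest quintile, and offsets scaled to width were not compared between quintiles. By TEAD4 rank the medians went only from 46 bp in the lowest quintile to 40 bp in the highest, and without the widest TEAD1 peaks from 41.5 to 35 bp. Pairs that carried HA-YAP5SA were centred as closely as the rest, at 43.25 bp against 42.5 bp.

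**Figure D2:**
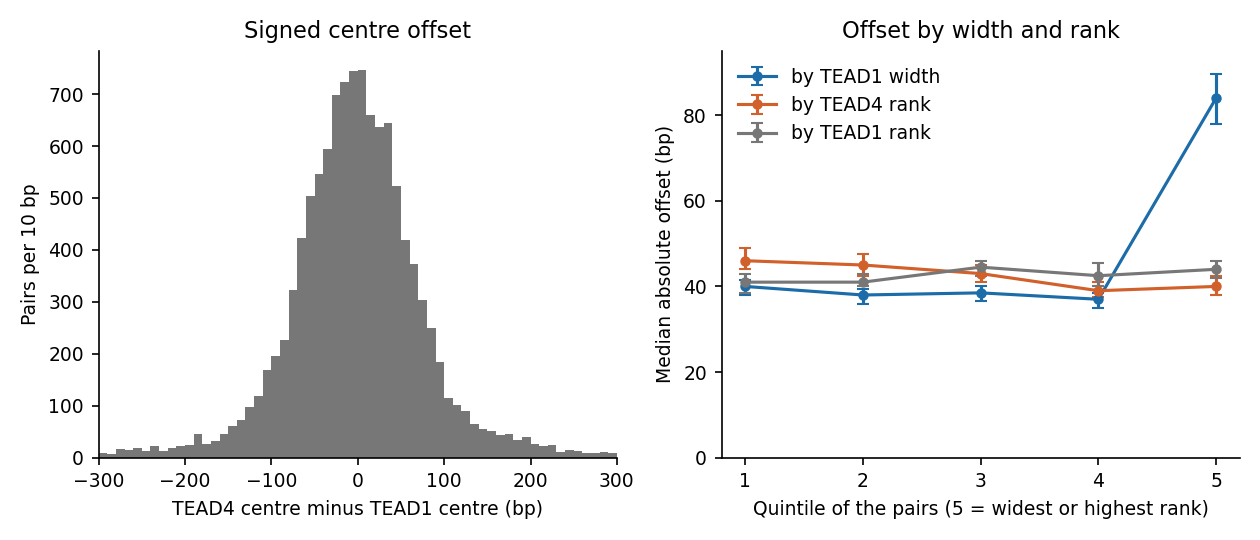
Left, number of pairs per 10 bp of signed centre offset (TEAD4 minus TEAD1, in bp) over pairs of 1 TEAD1 and 1 TEAD4 peak, leaving out of view 120 pairs more than 300 bp apart. Right, median absolute offset in bp by quintile of TEAD1 width (blue), TEAD4 rank (orange) and TEAD1 rank (grey), with 95% intervals of the median; the widest TEAD1 quintile stands at 84 bp and every other point between 37 and 46 bp.

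Some wide TEAD1 peaks held several TEAD4 peaks. This was seen at 169 TEAD1 peaks, which is 0.443% of all TEAD1 peaks and 1.45% of those with TEAD4 (interval 1.24 to 1.68%); 165 held 2 TEAD4 peaks and 4 held 3. With the lower-scoring peaks of both lists left out (below the median of each), the share of TEAD1 peaks was 0.183%. Their median width was 1248 bp (1068 to 1433 bp between quartiles), against 669 bp for those with 1 TEAD4 peak, and their outermost TEAD4 centres were a median of 525 bp apart (415.5 to 647 bp). Among TEAD1 peaks with TEAD4 that were 1000 to 1500 bp wide, 111 of 881 (12.6%, 10.5 to 15.0%) held 2 or more, against 26 of 9506 (0.274%, 0.179 to 0.401%) at 500 to 1000 bp. The opposite case, 1 TEAD4 peak across 2 TEAD1 peaks, occurred 6 times.

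The 4 TEAD1 peaks with 3 TEAD4 peaks show how these sites were divided. On chromosome 5 the TEAD1 peak chr5:14035849-14038019 (rank 45) was 2171 bp wide and held TEAD4 peaks centred 733.5 bp before, 24.5 bp after and 694 bp after its own centre, at TEAD4 ranks 1013, 2534 and 1730. The TEAD4 peaks there were of similar rank and evenly spread. The peak chr12:5915161-5917118 (rank 61) held TEAD4 peaks at ranks 796, 2399 and 10225, whose centres lay 461 bp before and 247.5 and 700 bp after the TEAD1 centre. At chr1:98788303-98790062 (rank 90) the TEAD4 ranks were 9357, 10256 and 273. The highest-ranking TEAD4 peak there sat 352 bp after the TEAD1 centre, next to a pair of peaks low in the TEAD4 list. The last, chr3:99619908-99621354 (rank 252), had its highest-ranking TEAD4 peak (rank 1782) 13 bp from the TEAD1 centre, flanked by peaks at ranks 10448 and 7846. The fifth peak named by the same rule, chr12:110388643-110390157 (rank 59), held 2 TEAD4 peaks, at ranks 972 and 247, with centres 311 bp before and 410.5 bp after its own.

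Ranks in both lists were then set side by side at the 11489 single pairs. The Spearman correlation of TEAD1 and TEAD4 rank was 0.73 over these pairs, which are sites of 1 pair of libraries and not replicates. By chromosome it ran from 0.60 on chromosome 18 (150 pairs) to 0.77 on chromosome 20 (351 pairs), with a median of 0.73 over 23 chromosomes. Rank also moved with width within each list (0.51 for TEAD1 and 0.74 for TEAD4), and widths of paired peaks were correlated at 0.51. Among the narrowest quintile of TEAD4 peaks the rank correlation was 0.28, and among the widest quintile 0.84. Because TEAD4 width moves with TEAD4 rank, each width quintile covers a different range of TEAD4 ranks. These values therefore cannot show where the agreement of ranks was closest.

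Among the pairs, ranks matched more often in the highest quintile than in the lowest. With ranks recomputed among the pairs, 43.8% of pairs (interval 42.9 to 44.7%) had TEAD1 and TEAD4 percentiles within 10 points and 69.0% within 20 points. Of the 2298 pairs in the highest TEAD1 quintile, 1674 (72.8%, 71.0 to 74.7%) were in the highest TEAD4 quintile and 19 (0.827%, 0.499 to 1.29%) in the lowest. In the lowest TEAD1 quintile, 47.8% (45.7 to 49.8%) were in the lowest TEAD4 quintile. In the middle quintile of TEAD1 rank, 29.5% (27.6 to 31.4%) were in the middle quintile of TEAD4 rank. A middle quintile can lose pairs in both directions, so its share cannot be set against those of the ends. Of the 1219 TEAD4 peaks in the top decile of their list, 95.9% (94.6 to 96.9%) lay on a TEAD1 peak in the top decile of the longer TEAD1 list. With equal numbers from the top of each list, the shared part was smaller: 64 of the top 100 TEAD4 peaks lay on a top 100 TEAD1 peak (64%, 53.8 to 73.4%), 315 of the top 500 (63%), 669 of the top 1000 (66.9%), 3706 of the top 5000 (74.1%) and 9105 of the top 12188 (74.7%).

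**Figure D3:**
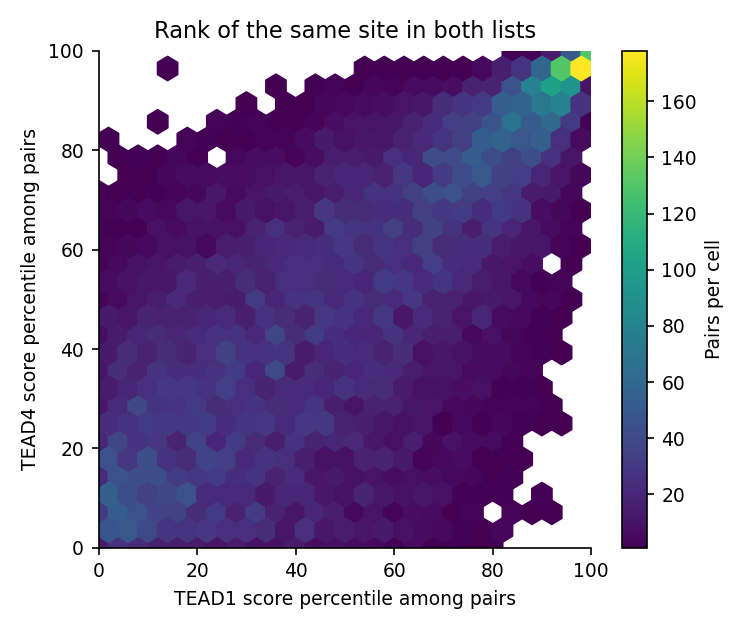
Number of pairs (colour scale, pairs per hexagonal cell) by score percentile of the TEAD1 peak (horizontal) and of the TEAD4 peak (vertical), both ranked among the pairs of 1 TEAD1 and 1 TEAD4 peak. Pairs are densest in the upper right corner, where 72.8% of the highest TEAD1 quintile lies in the highest TEAD4 quintile, and the corners of opposite rank are nearly empty.

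The leading sites of each list differed in how the other factor ranked. The highest-scoring TEAD1 peak, chr7:55034703-55035819, met the TEAD4 peak of rank 8, and the second, chr14:62221091-62222739, met 1 of the 5 TEAD4 peaks that share the highest TEAD4 score. The third TEAD1 peak, chr15:63400049-63400876, met TEAD4 rank 14, and the 2 that share the fourth rank, chr1:86072459-86073634 and chr1:109045427-109046320, met TEAD4 ranks 7 and 19. All 5 leading TEAD1 peaks thus stood among the 19 highest TEAD4 peaks. The leading TEAD4 peaks went lower in the TEAD1 list. Beside the chromosome 14 site, chr5:1326933-1329197 met TEAD1 rank 75, chr3:134044922-134046636 met TEAD1 rank 256 and chr1:205270119-205271321 met TEAD1 rank 280. The fifth, chr8:128747932-128748641, overlapped no TEAD1 peak, and the nearest TEAD1 centre was 5.82 kb away. At the chromosome 1 and chromosome 3 sites the TEAD4 peak (1203 and 1715 bp) was wider than the nearest TEAD1 peak (826 and 850 bp).

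Pairs of opposite rank were found on both sides. The single pair with the largest excess of TEAD4 over TEAD1 was at chr17:73717082-73717746, with a TEAD1 percentile of 6.18 and a TEAD4 percentile of 70.4, and its centres were 1.5 bp apart. The next were at chr7:141675948-141676393 (percentiles 4.48 and 67.5), chr13:100258637-100259226 (25.6 and 82.8), chr17:60953318-60953946 (2.16 and 55.4) and chr12:1714321-1715337 (11.3 and 63.1). None of these 5 TEAD1 peaks had another TEAD1 peak within 10 kb and none carried HA-YAP5SA. In the other direction the gaps were wider. At chr8:131244953-131245493 the TEAD1 percentile was 93.2 and the TEAD4 percentile 0.127. Like gaps were seen at chr1:39200990-39202067 (94.5 and 3.79), chr5:88733584-88734200 (92.6 and 1.85), chr19:43336316-43337624 (96.9 and 6.69) and chr18:25784017-25784761 (96.3 and 6.17). The TEAD4 peaks at these 5 sites were 165 to 295 bp wide, below the TEAD4 median of 352 bp. Percentiles here are within each whole list, and the pairs had a median TEAD1 percentile of 83.0 against a median TEAD4 percentile of 51.5.

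The strongest TEAD1 peaks without TEAD4 ranked well below the leading shared sites. They were chr10:72337995-72338789 (rank 660), chrX:87859443-87860242 (rank 917), chr17:57833382-57834178 (rank 944), chr13:43060905-43061822 (rank 1077) and chr15:71586836-71588962 (rank 1119). The nearest TEAD4 centre was 86.3, 620.5, 5.55, 38.1 and 41.9 kb away. Every TEAD1 peak ranked above the first of them carried TEAD4. In the TEAD4 list the strongest peaks without TEAD1 after the chromosome 8 peak were chr11:101981457-101981984 (rank 1064), chrY:58819352-58870525 (rank 1228), chr17:61993999-61994743 (rank 1257) and chr11:102100323-102100745 (rank 2097). The chromosome Y peak was 51174 bp wide, while the other 4 were 423 to 745 bp wide. Whether the signal at the chromosome 11 peaks came from the chromosome itself or from introduced DNA was not tested.

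Neighbouring peaks gave a second view of position. The median distance to the next centre of the same list was 11.7 kb in the longer TEAD1 list and 30.1 kb in the TEAD4 list. Peaks of a longer list lie closer together by its length alone, so these medians cannot be set against each other. A TEAD1 peak with TEAD4 had another TEAD1 peak within 10 kb in 6138 of 11668 cases (52.6%, interval 51.7 to 53.5%), and one without TEAD4 in 11529 of 26518 cases (43.5%, 42.9 to 44.1%). Read the other way, TEAD4 was present at 27.0% of TEAD1 peaks with no such neighbour (26.3 to 27.6%), at 33.1% with 1 neighbour (32.3 to 34.1%), at 39.8% with 3 (37.4 to 42.2%) and at 37.2% with 5 or more (31.7 to 43.1%). At like TEAD1 rank the difference was small. Peaks with a neighbour had the higher share in 10 of 10 score deciles, by 0.487 to 5.53 percentage points, and the intervals were apart in 4 of them. In the seventh decile TEAD4 was present at 33.5% of peaks with a neighbour and at 27.9% of peaks without, and in the eighth at 54.4% (52.1 to 56.7%) and 49.5% (47.3 to 51.7%).

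Within clusters that held TEAD4, it was mostly on the highest-scoring TEAD1 peak. A cluster was 2 or more TEAD1 peaks whose neighbouring centres lay within 10 kb, and there were 6873, holding 17667 TEAD1 peaks. The highest-scoring TEAD1 peak of a cluster carried TEAD4 in 3844 cases (55.9%, interval 54.7 to 57.1%), against 2294 of the other 10794 peaks (21.3%, 20.5 to 22%). Isolated TEAD1 peaks lay between, at 27.0%. TEAD4 was present at 23.5% of second-ranked members, 19.6% of third-ranked and 12.5% of those of rank 5. In the 2735 clusters with TEAD4 on a single TEAD1 peak, that peak was the highest-scoring one in 2398 (87.7%, 86.4 to 88.9%).

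Clusters of 2 TEAD1 peaks show how far this depended on the gap in rank. Of 4580 such clusters, TEAD4 was on both peaks in 540 (11.8%), on the higher peak alone in 1705 (37.2%), on the lower peak alone in 187 (4.08%) and on neither in 2148 (46.9%). Where TEAD4 was on 1 of the peaks and their TEAD1 percentiles differed by 10 points or less, it was on the higher in 116 of 198 clusters (58.6%, interval 51.4 to 65.5%). With a gap of 10 to 30 points it was on the higher in 383 of 459 (83.4%, 79.7 to 86.7%), and above 30 points in 1206 of 1235 (97.7%, 96.6 to 98.4%). Choosing the higher-scoring member uses the same TEAD1 score that moves with the TEAD4 share over the whole list, so this is not independent of the decile pattern.

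Larger clusters nearly always held TEAD4 somewhere and almost never throughout. Any TEAD4 was present in 53.1% of clusters of 2, 70.4% of clusters of 3, 83.8% of clusters of 4 and 369 of the 385 clusters of 5 or more (95.8%, interval 93.3 to 97.6%). TEAD4 on every TEAD1 peak was seen in 11.8%, 5.60%, 2.71% and 3 of 385 (0.779%, 0.161 to 2.26%). At any fixed share per peak, the first of these shares rises and the second falls as peaks are added to a cluster. Their course with cluster size therefore shows nothing particular to clusters. The cluster with the most peaks, chr14:61991622-62061617, spanned 70.0 kb and held 18 TEAD1 peaks, of which 11 carried TEAD4. Those 11 had a median TEAD1 percentile of 90.7 and the other 7 a median of 33.6, although the lowest of the 11 was at 14.4. The next clusters were chr1:85779485-85810018 with TEAD4 on 6 of 14 peaks, chr8:118990214-119042341 with 4 of 12, chr3:134027222-134054386 with 7 of 11 and chr15:71063113-71095501 with 4 of 11. In each of these 5 clusters the highest-scoring TEAD1 peak carried TEAD4. On chromosomes 8 and 3 the groups did not overlap in TEAD1 percentile: the lowest peak with TEAD4 stood at 70.1 and 79.7, and the highest without at 49.2 and 68.1. The chromosome 3 cluster contains the leading TEAD4 site of that chromosome named above.

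**Figure D4:**
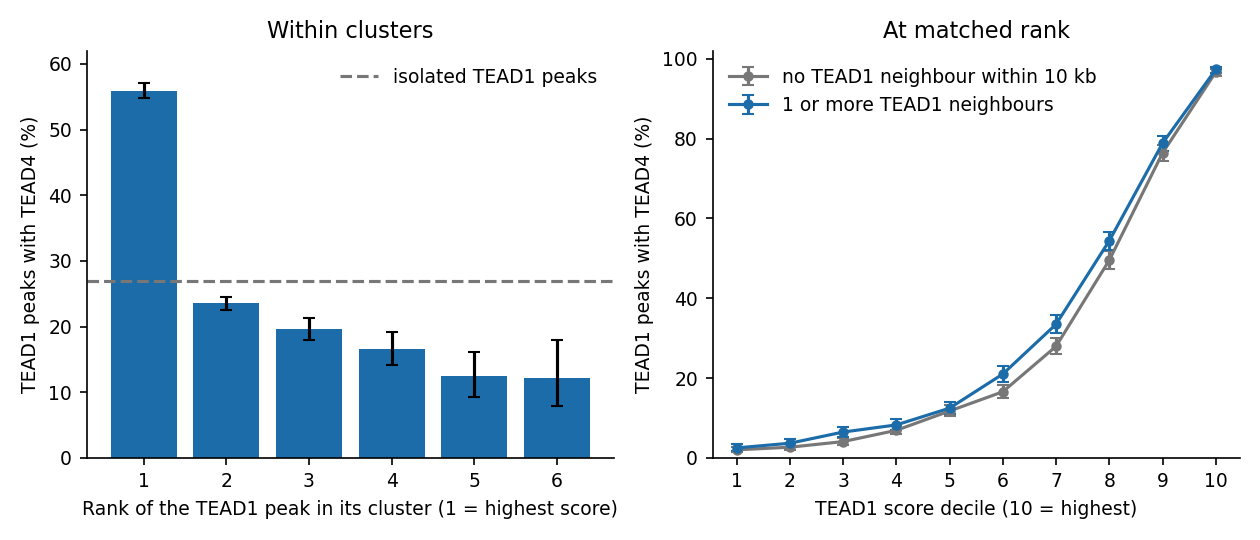
Left, share of TEAD1 peaks with TEAD4 (percent, exact 95% binomial intervals) by rank of the peak within its cluster, with isolated peaks as a dashed line at 27.0%; the first-ranked members stand at 55.9% and the second-ranked at 23.5%. Right, the same share by TEAD1 score decile for peaks with (blue) and without (grey) a TEAD1 neighbour within 10 kb, where the curves differ by at most 5.53 percentage points.

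Most peaks that lacked the other factor had no peak of it centred within 10 kb. Of the TEAD1 peaks without TEAD4, 5127 of 26518 (19.3%, interval 18.9 to 19.8%) had a TEAD4 centre within 10 kb. A TEAD1 peak without TEAD4 had its nearest TEAD4 centre a median of 51.3 kb away (interquartile range 14.8 to 143.7 kb, over the 26509 with a TEAD4 peak on their chromosome), and 502 of 26518 (1.89%, interval 1.73 to 2.06%) had one within 1 kb. This distance changed little with TEAD1 rank, from 53.2 kb in the lowest decile to 43.4 kb among the 114 peaks of the highest decile that lacked TEAD4. A TEAD4 peak without TEAD1 was a median of 15.0 kb from a TEAD1 centre (4.66 to 36.3 kb). Of these 353 peaks, 136 (38.5%, 33.4 to 43.8%) had a TEAD1 centre within 10 kb and 29 (8.22%, 5.57 to 11.6%) within 1 kb. The lists differ in density, so neither the 2 median distances nor these shares can be set against each other.

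HA-YAP5SA peaks, a readout that the comparison of the TEAD lists did not use, concentrated where both TEADs ranked high. The HA-YAP5SA list held 847 peaks, and HA-YAP5SA was present at 2.06% of all TEAD1 peaks and 6.28% of all TEAD4 peaks. It was present at 763 of 11668 TEAD1 peaks with TEAD4 (6.54%, interval 6.10 to 7%) and at 24 of 26518 without (0.0905%, 0.0580 to 0.135%). Among TEAD1 peaks of like rank the share was higher with TEAD4 in 8 of 10 deciles, the other 2 having no HA-YAP5SA in either class, and the intervals were apart in 3, the eighth to the highest. In the highest TEAD1 decile HA-YAP5SA was present at 658 of 3705 peaks with TEAD4 (17.8%, 16.5 to 19.0%) and at 2 of 114 without (1.75%, 0.213 to 6.19%). In the ninth decile it was present at 71 of 2965 with TEAD4 (2.39%, 1.87 to 3.01%) and 5 of 854 without (0.585%, 0.190 to 1.36%), and in the eighth at 21 of 1980 (1.06%, 0.658 to 1.62%) and 4 of 1838 (0.218%, 0.0593 to 0.556%). Peaks within a decile still differ in rank.

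Among the single pairs, 742 of 11489 carried HA-YAP5SA (6.46%, interval 6.02 to 6.92%). The share was higher where both peaks were in the highest quintile than where only 1 of them was. Pairs within a quintile still differ in rank, and this was not matched between the classes. Where both peaks were in the highest quintile, 523 of 1674 pairs carried it (31.2%, 29.0 to 33.5%). Pairs in the highest TEAD1 quintile but not the highest TEAD4 quintile carried it in 47 of 624 cases (7.53%, 5.59 to 9.89%). The mirror class, high TEAD4 but not highest TEAD1, gave 48 of 624 (7.69%, 5.73 to 10.1%). The shares of these mirror classes differed by less than their intervals. The remaining 8567 pairs gave 124 (1.45%, 1.21 to 1.72%).

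**Figure D5:**
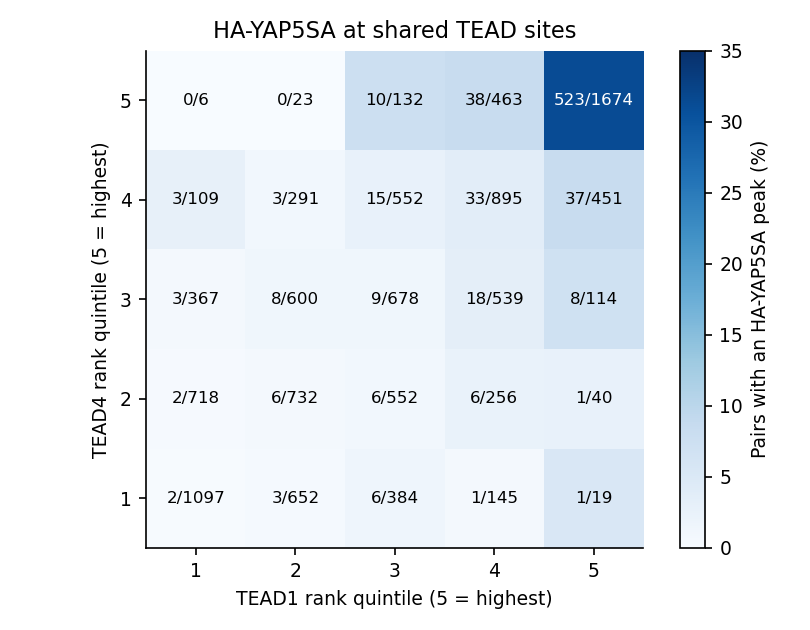
Share of pairs with an HA-YAP5SA peak (colour, percent; counts over pairs printed in each cell) by quintile of TEAD1 rank (horizontal) and of TEAD4 rank (vertical), with 5 as the highest. The cell of highest rank in both lists holds 523 of 1674 pairs (31.2%), and no other cell exceeds 8.21%.

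The YAP antibody list held 454 peaks, and 80 TEAD1 peaks (0.21%) and 76 TEAD4 peaks (0.624%) met one. What follows covers only YAP peaks that met a TEAD peak, not the YAP list as a whole. Those at single pairs lay mostly in the same corner. Of the 64 single pairs with YAP, 56 (87.5%, interval 76.8 to 94.4%) were in the highest quintile of both lists, which held 14.6% of all pairs. YAP was present at 0 of the 624 pairs in the highest TEAD1 quintile alone, an observation that allows up to 0.481%, and at 1 of the 624 in the highest TEAD4 quintile alone. Of the 169 TEAD1 peaks that held 2 or more TEAD4 peaks, 20 carried HA-YAP5SA (11.8%, 7.38 to 17.7%), above the 6.54% of all TEAD1 peaks with TEAD4. These peaks ranked high, with 131 of them in the highest TEAD1 decile. In that decile HA-YAP5SA was present at 20 of 131 (15.3%, 9.58 to 22.6%), against 638 of 3574 with 1 TEAD4 peak (17.9%, 16.6 to 19.1%), and these intervals overlap.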

How the data were processed

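Of 8 libraries, 5 had peak lists here, deposited with a score for each peak whose scale is not stated; scores were used only as ranks. Bowtie2 and hg19 are named in the submitters' processing notes, and peak names begin with MACS; the caller's version, threshold and controls were not given in the sources used here. A longer list can reflect a deeper library, a stronger precipitation or a looser threshold. Starts of the TEAD lists were read as counted from 1 and those of the other lists from 0. Peaks sharing at least 1 bp were paired. Each TEAD4 peak took the overlapping TEAD1 peak with the nearest centre; pairs of 1 peak with 1 peak were used for ranks. Neighbours lay within 10 kb, centre to centre. Exact Clopper-Pearson intervals at 95% were computed, with 3 peaks as the limit for a count of 0. Quintiles divide the single pairs into equal parts. Peaks named were the 5 leading by score, by lack of the other factor, by rank gap, by TEAD4 peaks per TEAD1 peak and by cluster size. Members, lists and measures were chosen with earlier results of these data known. Planned motif, promoter and gene comparisons were not run, because the reference tables follow another build. Pairing and offsets were tested on simulated data. Tools were SciPy 1.17.1, pandas 2.3.3, matplotlib 3.10.9 and NumPy 2.4.6 under Python 3.11.15.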

Additional observations from a re-analysis of the deposited data

How the results depend on the processing

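Of 45 recomputed values (8 results, 11 settings), 23 stayed within the interval of the reported value. Of these, 4 came from counting the starts of both lists from 0, which shifts all centres alike and could not move them, which leaves 19. Requiring 50% overlap or using chromosomes 1 to 22 and X moved none beyond it. With as many TEAD1 as TEAD4 peaks, TEAD4 peaks on TEAD1 were 74.7%, TEAD1 peaks with TEAD4 73.4% and top-decile TEAD4 peaks on top-decile TEAD1 peaks 68.4%; the TEAD1 list is shorter by construction. With centres within 250 bp these were 93.6, 29.8 and 93.4%, the offset 42 bp and first-ranked cluster members with TEAD4 54.3%. With the lower-scoring peaks of each list left out (below its median), TEAD4 on TEAD1 was 98.3%, TEAD1 with TEAD4 31.2%, the offset 42 bp, TEAD1 peaks with several TEAD4 peaks 0.183%, neighbours 39.1% with and 30.2% without TEAD4, and first-ranked members with TEAD4 58.0%. Single pairs gave an offset of 42.5 bp, and the top 20% of each list a shared part of 98.2%. Neighbours within 5 kb were found for 35.3% with and 28.8% without TEAD4, within 25 kb for 74.9% and 66.4%, with first-ranked members at 57.1%. TEAD1 peaks with TEAD4 had a neighbour more often than those without in 6 of 6 settings, the reported one included. The motif, promoter and gene alternatives were not run. No paired analysis was possible because each antibody has 1 library. The unknown depth limits the absence of a peak: it does not show absence of binding.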

Other observations

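Most TEAD4 peaks without TEAD1 stood alone. With centres joined up to 100 kb apart, 305 of 353 (86.4%, interval 82.4 to 89.8%) had no other such peak beside them, 36 were in 18 groups of 2, and the groups named next were chosen after their values were seen. The largest was 6 peaks at chr11:101981457-102100745 (119.3 kb). Their gene context was not assigned here, and whether their signal came from the chromosome itself or from introduced DNA was not tested. They were 155 to 528 bp wide and stood at TEAD4 percentiles 32.4 to 91.3. The 6 peaks were chr11:101981457-101981984, chr11:101984854-101985128, chr11:102076586-102076833, chr11:102094337-102094491, chr11:102098191-102098379 and chr11:102100323-102100745, at TEAD4 ranks 1064, 4336, 4244, 8241, 6757 and 2097. The same stretch held 7 TEAD1 peaks, of which 2 carried TEAD4, so TEAD1 was called between these peaks but not on them. The distance to the nearest TEAD1 centre was 0.561 to 20.1 kb. The last of the 6 overlapped an HA-YAP5SA peak, 1 of 2 among the 353 TEAD4 peaks without TEAD1. The other groups above 2, of 3 peaks each, were on chromosome 1 at chr1:2583974-2629427 and chr1:228745951-228782516, where no TEAD1 peak was called and widths were 369 to 3883 bp and 1667 to 7848 bp.

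Chromosome 1 held 64 of the 353 TEAD4 peaks without TEAD1 (18.1%, interval 14.3 to 22.6%), against 12.0% of all TEAD4 peaks (11.5 to 12.6%) and 10.6% of all TEAD1 peaks. This was not particular to chromosome 1: TEAD4 peaks lay on TEAD1 in 95.6% of cases there, 95.9% on chromosome 17 and 96.1% on chromosome 16. YAP-antibody peaks were at 11 of the 353 TEAD4 peaks without TEAD1 (3.12%, 1.57 to 5.51%), against 0.624% of all TEAD4 peaks. HA-YAP5SA was at 2 of them (0.567%, 0.0687 to 2.03%), against 6.28% of all TEAD4 peaks.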
